A study of Mus musculus with 4 samples.

Results

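The genes described here are Mcm2, Mcm3, Mcm4, Mcm5, Mcm6 and Mcm7, which encode the subunits of the MCM replicative helicase, Gins2, which encodes a subunit of the GINS complex, Pcna, which encodes the sliding clamp, and Gse1, the gene that converges on Gins2 from the opposite strand. They were chosen by name, with earlier results of these data known. All 9 were found among the 50600 genes of each deposited table through GENCODE symbols. The libraries are total RNA-seq of mouse T-helper 2 primary cells, the interleukin 4 producing subset of CD4 T cells, which were derived in culture from C57BL/6NJ mice. There are 4 libraries in 1 group with no treatment or genotype contrast, and the file headers name 16 hours, a time that the sample labels do not give. Sex was not collected, age is given as unknown, and the libraries are numbered as biological replicates 1 to 4 but share a donor identifier. The p-values therefore reflect only how far these samples spread, and that spread may be technical.

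MCM proteins are loaded as a ring-shaped hexamer onto replication origins before DNA synthesis, and the ring becomes the active helicase when Cdc45 and the GINS complex bind it. PCNA then encircles DNA and holds the polymerases on the template. T cells that leave quiescence after activation are known to induce these genes, in large part through E2F transcription factors. Gse1 is not a replication factor. Its protein is found with a CoREST-type histone deacetylase and demethylase complex in human cells.

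The library totals were 1688658, 1705096, 2222583 and 1881293 counts in replicates 1 to 4. Counting used a single strand, and the sources used here do not give which strand of the RNA the library chemistry keeps, so every level below is a level on the counted strand. If the chemistry keeps the other strand, a value printed under a gene's name measures RNA of the strand opposite that gene, and this was not tested. Genes with an opposite exon have at least 1 exon base that is also exonic in a gene of the other strand. They made up 33.7% of the genes with a count and held 90.1% to 93.3% of the counts. Of the counts in mitochondrial mRNA genes, 87.2% to 92.0% lay in mt-Nd6, the mitochondrial mRNA gene that lies on the minus strand. All 15 T cell markers had counts in every library. Of the 10 T-helper 2 markers, 4 (Il5, Il13, Il1rl1 and Maf) were at 0 in every library, as were 26 of 32 markers of other cell types. The highest of these 32 was the myeloid marker Csf1r, with 922, 916, 973 and 1018 counts and 871 bases opposite Hmgxb3. Among those with no exon opposite, 3 had counts in every library. They were the B cell markers Cd79a (15, 16, 20 and 9 counts) and Ighm (17, 15, 3 and 24), and Cd8b1 (3, 11, 5 and 10). For a gene at 0, 3 counts were taken as the limit, which is a CPM (counts scaled by the library total) of 1.35 to 1.78 across libraries. This limit and the intervals below cover counting error only. In bulk RNA, fewer cells in cycle and less RNA per cell cannot be told apart.

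The promoter sequences of the helicase genes are shown as background, because E2F proteins are their best-known regulators. RefSeq windows on GRCm38.p6, each with 250 bases before and 50 bases after an annotated start, were available for 7 of the 9 genes in 10 windows, all but Mcm4 and Gins2. The E2F-like letters TTTNNCGC, or GCGNNAAA on the other strand, were searched in both directions. They were present in 5.17% of 32851 windows of the same length, and in 4 of the 10 windows of these genes. Those windows belong to 4 of the 7 genes, Mcm3, Mcm5, Mcm6 and Mcm7. The 30-base stretches below are written 5′ to 3′ on the strand of each gene, with the matched letters in capitals. Of 9 matches, 7 are shown. The others, on the opposite strand of Mcm5 at position -149 and of Mcm6 at position -106, share bases with a match shown and stand partly in lower case in its stretch. Positions count from the RefSeq start as 0.
Mcm3 site at position 38, chr1:20820263-20820292, minus strand: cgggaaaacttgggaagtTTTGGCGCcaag
Mcm3 site at position 19, chr1:20820275-20820304, minus strand: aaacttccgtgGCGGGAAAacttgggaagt
Mcm5 site at position -153, chr8:75109345-75109374, plus strand: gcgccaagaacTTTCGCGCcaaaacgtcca
Mcm6 site at position -110, chr1:128359797-128359826, minus strand: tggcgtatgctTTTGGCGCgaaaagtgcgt
Mcm6 site at position -47, chr1:128359734-128359763, minus strand: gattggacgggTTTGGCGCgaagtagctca
Mcm7 site at position 16, chr5:138171849-138171878, minus strand: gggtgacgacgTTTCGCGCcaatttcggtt
Mcm7 site at position -165, chr5:138172030-138172059, minus strand: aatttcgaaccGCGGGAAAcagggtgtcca

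The Mcm6 window held the most matches, and its 250 bases before the start, chr1:128359706-128359955 on the minus strand, are printed in full with the E2F-like letters in capitals. The capitals of the upstream site join a match on each strand that share bases.
Mcm6 upstream: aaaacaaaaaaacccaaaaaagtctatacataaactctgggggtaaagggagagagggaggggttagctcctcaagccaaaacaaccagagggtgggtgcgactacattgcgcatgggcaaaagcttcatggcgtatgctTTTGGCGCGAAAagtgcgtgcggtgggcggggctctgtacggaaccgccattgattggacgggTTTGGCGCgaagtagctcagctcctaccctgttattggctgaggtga
The CCAAT letters, with ATTGG on the other strand, were present in 8 of the 10 windows, from 7 of 7 genes, and in 37.4% of all windows. The GC-box letters GGGCGG, with CCGCCC on the other strand, were present in 9 of the 10 windows and in 35.7% of all windows. Those 9 windows belong to 6 of 7 genes, all but Mcm5. These matches describe letters in the window, and neither binding nor an effect on the levels was measured.

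All helicase genes had counts on the counted strand in every library. Of the 6, 5 (Mcm2 to Mcm6) were lowest in replicate 3 and highest in replicate 4 in CPM. These 5 genes have no exon of another gene on the opposite strand, and of all tested genes of that class 57.7% were lowest in replicate 3 and 59.1% highest in replicate 4. As a share of the counts in that class, Mcm4, Mcm5 and Mcm6 were not highest in replicate 4, with Mcm4 at 477.3 in replicate 1 against 433.5 in replicate 4 after scaling. Levels are given as TPM, the length-scaled share of transcripts, computed from the counts and the exon length of the deposited tables, with mean ± SD over n = 4.

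Mcm2 (chr6:88883474-88898780, minus strand), the subunit that also binds histones, had 66, 77, 47 and 120 counts in replicates 1 to 4. These were 8.13, 9.61, 4.52 and 13.45 TPM, with a mean of 8.93 ± 3.70 TPM (SD, n = 4). Replicate 4 was highest and replicate 3 lowest, with a ratio of 3.02 between their CPM.

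Mcm3 (chr1:20802968-20820312, minus strand), the partner of Mcm5 in the ring, had 83, 106, 74 and 162 counts. These were 18.95, 24.52, 13.2 and 33.66 TPM, with a mean of 22.6 ± 8.72 TPM (SD, n = 4). It was the highest of the 5 helicase genes without an opposite exon, and its ratio of highest to lowest CPM was 2.59.

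Mcm4 (chr16:15623897-15637400, minus strand), which forms the core helicase with Mcm6 and Mcm7, had 67, 62, 24 and 81 counts. These were 15.99, 14.99, 4.475 and 17.6 TPM, with a mean of 13.3 ± 5.96 TPM (SD, n = 4). Replicate 3 was the lowest library, and its gap to the next was 0.802 of the whole range, under Dixon's 95% critical value for 4 samples. The ratio of highest to lowest CPM, 3.99, was the largest of the 9 genes.

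Mcm5 (chr8:75109569-75128439, plus strand), which with Mcm2 forms the gate through which DNA enters the ring, had 69, 65, 30 and 86 counts. These were 14.8, 14.13, 5.028 and 16.79 TPM, with a mean of 12.7 ± 5.23 TPM (SD, n = 4). As for Mcm4, replicates 1, 2 and 4 lay close together and replicate 3 was low, and the ratio of highest to lowest CPM was 3.39.

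Mcm6 (chr1:128331590-128359664, minus strand), which binds the licensing factor Cdt1, had 76, 78, 47 and 97 counts. These were 13.95, 14.51, 6.741 and 16.21 TPM, with a mean of 12.9 ± 4.19 TPM (SD, n = 4). The ratio of highest to lowest CPM was 2.44, the smallest among the 5.

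Mcm7 (chr5:138164583-138172422, minus strand) spread less between libraries than the other helicase genes, and its level was above theirs except for Mcm3 in replicate 4. It had 140, 148, 149 and 157 counts, which were 27.1, 29.02, 22.53 and 27.66 TPM, with a mean of 26.6 ± 2.82 TPM (SD, n = 4). Replicate 3 was again the lowest library, but the ratio of highest to lowest CPM was 1.295. Of its 4426 exon bases, 385, or 8.70%, lie opposite exons of other genes. Mcm7 exons also contain the microRNA genes Mir25 and Mir93 on the same strand, which were listed at 0 counts in every library. Whether reads over those stretches were assigned to Mcm7 was not tested.

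The genes opposite Mcm7 had more counts than Mcm7 in every library. Cops6, a subunit of the COP9 signalosome, shares 64 bases with the 3′ end of Mcm7 (chr5:138164583-138164646) and had 819, 725, 551 and 639 counts, which is 5.85, 4.90, 3.70 and 4.07 times those of Mcm7. Ap4m1, a subunit of the AP-4 adaptor complex, shares 321 bases at the 5′ end of Mcm7 in segments of 247 and 74 bases and had 1483, 1400, 1383 and 1366 counts. Both partners were lowest in replicate 3 and highest in replicate 1 in CPM, with ratios of 1.96 for Cops6 and 1.41 for Ap4m1.

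The summed level of the 6 helicase genes was 98.9, 106.8, 56.5 and 125.4 TPM in replicates 1 to 4. Mcm7 made up 27.4%, 27.2%, 39.9% and 22.1% of this sum, and its share was highest in replicate 3. Mcm4 made up 16.2%, 14.0%, 7.92% and 14.0%, and its share was lowest in replicate 3. The Mcm6 share varied least in SD, at 13.1 ± 0.937% (SD, n = 4), against 29.1 ± 7.58% for Mcm7.

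**Figure D1:**
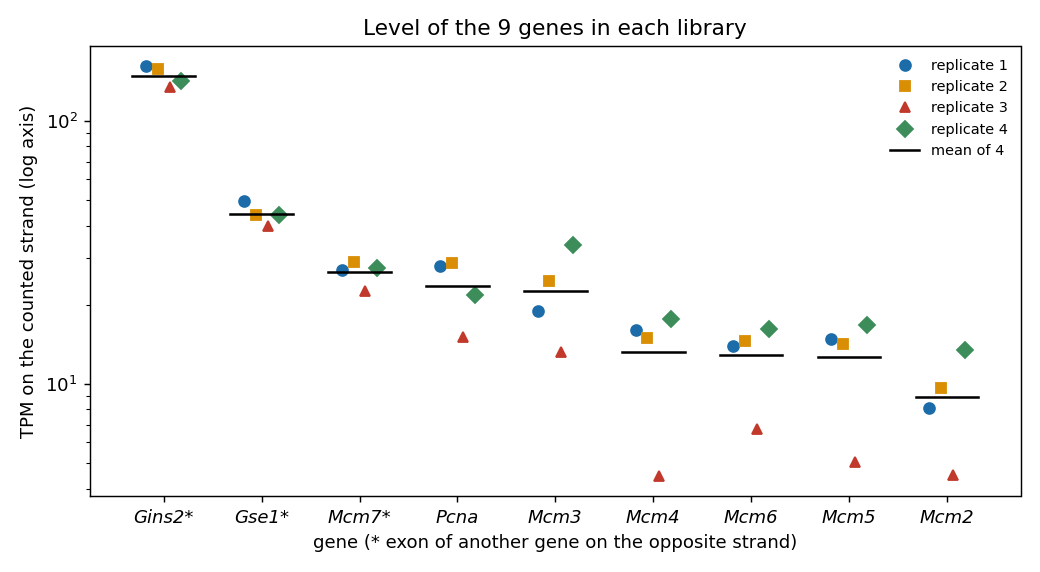
Each point is the TPM of a gene on the counted strand (log axis) in 1 of the 4 libraries, and each bar is the mean; an asterisk marks genes with an exon of another gene opposite. Gins2 lies between 134.3 and 161.2 TPM, and replicate 3 is the lowest library for all 9 genes.

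Pcna (chr2:132249162-132253314, minus strand) had 79, 80, 54 and 67 counts. These were 28.2, 28.93, 15.06 and 21.77 TPM, with a mean of 23.5 ± 6.48 TPM (SD, n = 4). Replicates 1 and 2 were highest and replicate 3 lowest, with a ratio of highest to lowest CPM of 1.93. Replicate 4, the highest library for Mcm2 to Mcm6, was the second lowest for Pcna. Pcna has no exon opposite, and its processed copies Pcna-ps1 and Pcna-ps2 were at 0 counts in all libraries, although reads that match several loci may not have been counted at any of them.

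The value under Gins2 on the counted strand was the highest among the 9 genes, and 67.3% of the exon length of Gins2 lies opposite Gse1. Whether this value measures RNA of Gins2 or of the other strand was not tested. Gins2 (chr8:120578633-120589304, minus strand) had 771, 742, 822 and 746 counts, which were 161.2, 157.2, 134.3 and 142.0 TPM, with a mean of 149 ± 12.7 TPM (SD, n = 4). The libraries lay within a ratio of 1.235 in CPM, the smallest of the 9 genes.

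The other GINS subunits were close to the counting floor in the same libraries. Gins4 had 9, 6, 2 and 4 counts with a mean of 3.22 ± 2.04 TPM (SD, n = 4), Gins1 had 2, 4, 0 and 6 counts, and Gins3 had 2, 2, 1 and 6 counts. These genes have no exon opposite, and they were named after their values were seen. Cdc45, which joins GINS on the helicase, had 11, 6, 8 and 20 counts.

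Gse1 (chr8:120228456-120581390, plus strand) had 598, 523, 615 and 585 counts, which were 49.49, 43.86, 39.76 and 44.07 TPM, with a mean of 44.3 ± 3.99 TPM (SD, n = 4). Its ratio of highest to lowest CPM was 1.28. The last exons of Gse1 and Gins2 run through each other: they share 1 stretch of 2758 bases, chr8:120578633-120581390, which is 67.3% of the exon length of Gins2 and 26.6% of that of Gse1. A further 134 exon bases of Gse1 lie opposite 1700016A09Rik, an entry of unresolved type (TEC) in the annotation, which had 15, 25, 24 and 14 counts.

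On the counted strand, the value under Gins2 was higher than that under Gse1 in 4 of 4 libraries, with ratios of 3.26, 3.58, 3.38 and 3.22 in TPM. The mean difference in log2(TPM + 1) was 1.725 ± 0.07 (SD, n = 4), and the exact two-sided sign-flip permutation test gave p = 0.125, the smallest that 4 libraries allow. Much of the size of this difference follows the gene length used. Without length scaling it was 0.41 in log2(CPM + 1), and with the length of the principal transcript it was 1.27. If the counts lie on the strand opposite the RNA, counts under each name come from the strand of the other gene, and the order of the genes could turn. The deposited counts hold no positions, so how many reads of either gene lie in the shared stretch was not tested.

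**Figure D2:**
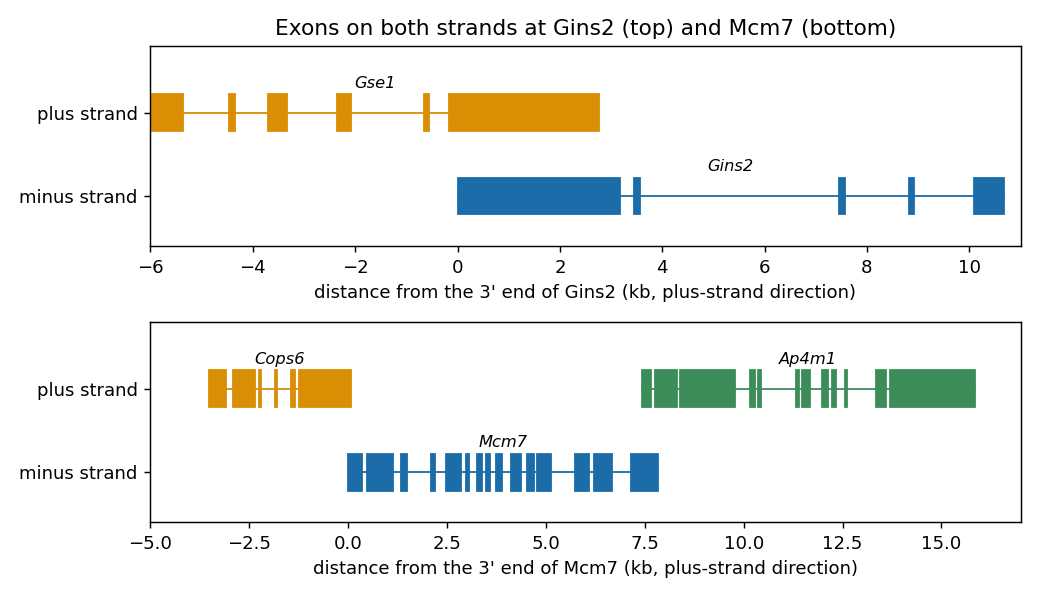
Boxes are exons and lines join exons of a gene, on the plus strand (upper row) and minus strand (lower row), against distance in kb from the 3′ end of Gins2 (top) or Mcm7 (bottom). The last exons of Gins2 and Gse1 overlap by 2758 bases, while Mcm7 meets Cops6 and Ap4m1 in 64 and 321 bases at its ends, and Gse1 runs on past the left edge.

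The order of mean levels per length was Gins2, Gse1, Mcm7, Pcna, Mcm3, Mcm4, Mcm6, Mcm5 and Mcm2. Neighbours in this order were compared within libraries with the exact two-sided sign-flip permutation test on log2(TPM + 1), in which p = 0.125 is the smallest possible value and becomes 0.25 after Benjamini-Hochberg adjustment over 8 pairs. In 4 of the 8 pairs the order held in every library, with p = 0.125 in this exact test. They were Gins2 over Gse1, Gse1 over Mcm7 by 0.72 ± 0.12, Mcm3 over Mcm4 by 0.79 ± 0.48 and Mcm5 over Mcm2 by 0.43 ± 0.29 (SD, n = 4). The other 4 pairs differed by less than their spread. Mcm7 and Pcna differed by 0.21 ± 0.29, Pcna and Mcm3 by 0.09 ± 0.49, Mcm4 and Mcm6 by -0.04 ± 0.31 and Mcm6 and Mcm5 by 0.07 ± 0.20.

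The lower end of the order depends on gene length. The deposited exon length of Mcm2, 6956 bases, is 2.06 times that of its principal transcript, and for Mcm4 the 2 lengths are equal. With principal transcript lengths, the mean of Mcm2 was 18.4 ± 7.61 TPM (SD, n = 4), and Mcm4 became the lowest of the 9 genes. Gins2, Gse1, Mcm7, Pcna and Mcm3 held the same places.

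Within the protein-coding nuclear genes with a count, the counted-strand values of the 9 genes lay above the median of their own class. Among 8449 such genes with no opposite exon, whose median was 0.839 TPM, the mean levels lay from the 92.1 percentile for Mcm2 to the 97.2 percentile for Pcna. Among 3847 with an opposite exon, whose median was 3.16 TPM, Mcm7 lay at the 78.8 percentile, Gse1 at the 83.9 and Gins2 at the 92.9.

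Whether a gene varied between libraries more than genes of like abundance was tested with edgeR's quasi-likelihood fit over all 4918 genes that passed the filter on low counts. With Benjamini-Hochberg adjustment, 0 of the 9 members passed an adjusted p of 0.05, beside 22 of all genes tested, or 0.447%. At an unadjusted p under 0.05 there were 4 members, Mcm2, Mcm3, Mcm4 and Mcm5, beside 5.71% of all genes tested. All 4 have no opposite exon, a class in which the share was 9.45%, and with library size and TMM from that class the count was 1, Mcm4. The limma-voom version of the test also called 0 members, with 4 at an unadjusted p under 0.05.

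The smallest edgeR p among the members was that of Mcm4, 0.00475, with an adjusted p of 0.361. The unadjusted values in that fit were 0.0126 for Mcm5, 0.0213 for Mcm2, 0.0237 for Mcm3, 0.0740 for Mcm6, 0.180 for Pcna, 0.476 for Gins2, 0.666 for Gse1 and 0.850 for Mcm7. Without replicate 3, 0 members were at an unadjusted p under 0.05, and without replicate 4 there were 2, Mcm4 and Mcm5.

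The 6 genes with no exon opposite spread more than the 3 with one. Their ratio of highest to lowest CPM ran from 1.93 to 3.99 with a median of 2.80, while it ran from 1.235 to 1.295 for Gins2, Gse1 and Mcm7, with no overlap. A split of the same direction was present over all genes tested, where the median ratio was 1.88 for 1756 genes with no opposite exon and 1.35 for 3162 genes with one. There the classes did overlap, with ratios from 1.026 to 6.216 for genes with none and from 1.021 to 9.433 for genes with one. The members with no opposite exon lay above the median of their class and those with one lay below theirs. The levels of Gins2 and Gse1 rest on more counts than those of the other members, and the part of counting error in the split was not tested.

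Without replicate 3 the median ratio of the 6 genes was 1.26, and without replicate 4 it was 2.15. The 6 genes together had 440, 468, 276 and 613 counts, or 260.6, 274.5, 124.2 and 325.8 CPM. The CPM in replicate 3 divided by the mean of the other libraries was 0.272 for Mcm4, 0.325 for Mcm5, 0.429 for Mcm2, 0.446 for Mcm6, 0.506 for Mcm3 and 0.564 for Pcna. The median over all tested genes with no opposite exon was 0.737, and 57.7% of these were lowest in replicate 3.

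Gins2, Gse1 and Mcm7 together had 893.6, 828.7, 713.6 and 790.9 CPM. Their ratios of replicate 3 to the mean of the other libraries were 0.861, 0.854 and 0.794, against a median of 0.933 for tested genes with an opposite exon. With TMM scaling, Gins2 and Gse1 were lowest in replicate 4 instead, at -0.17 and -0.11 in centred log2 CPM.

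Several library measures moved with the low replicate 3. Genes with no opposite exon held 6.70% of its counts, against 7.75% to 9.93% in the others, and the entry CT010467.1 held 9.40%, against 1.29% to 5.05%. Of the 15 T cell markers, 13 were lowest in replicate 3, and the median over these markers of the ratio of replicate 3 to the mean of the other libraries was 0.512, within the range of the 6 members. Their summed level was 701 CPM against 840 to 946 CPM, and most of it was Cd247, which has 3007 bases opposite Pou2f1 and had 1023, 1026, 1261 and 1217 counts. The 27 markers of other cell types with no opposite exon summed to 12.6 to 24.6 CPM, and 24 of them were at 0 in every library. All 32 markers of other cell types, with and without an opposite exon, summed to 470 to 582 CPM, most of it from Csf1r. The part of these measures in the result was not tested beyond a change of scale. As a share of the counts in genes with no opposite exon, the 6 genes had scaled counts of 3135, 3541, 1853 and 3281, so replicate 3 remained the lowest library for the sum. On that scale the ratio of highest to lowest had a median of 1.95, and Pcna was lowest in replicate 4, at 358.6 against 362.6 in replicate 3.

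**Figure D3:**
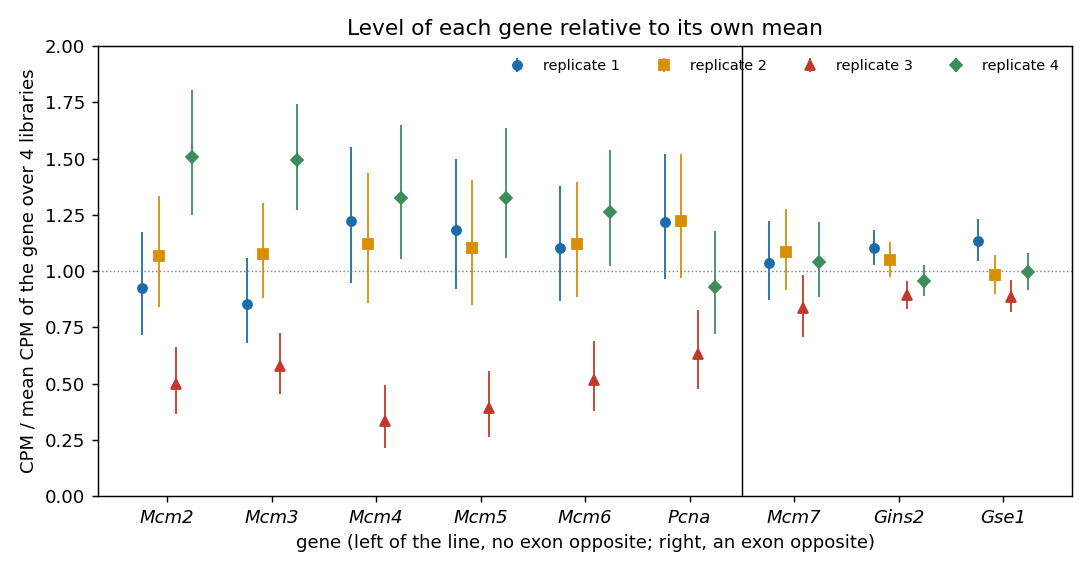
Each point is the CPM of a gene in 1 library divided by the mean of that gene over the 4 libraries, with exact Poisson 95% intervals, which cover counting error only. Replicate 3 is lowest for all 9 genes; the ratio of highest to lowest library runs from 1.93 to 3.99 left of the line and from 1.235 to 1.295 right of it.

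Genes with the closest pattern over the 4 libraries were sought among 3499 protein-coding genes by Euclidean distance between centred log2 CPM. For the mean profile of the 6 members with no opposite exon, they were Rad50, Hspa9, Polr1a, Ppib and Slc25a5, at distances from 0.0631 to 0.101 with a median of 0.941 over all candidates. Rad50 had 27, 28, 16 and 36 counts and Hspa9 had 122, 133, 76 and 161. For Gins2 they were Dnah11, Loxl3 and Yipf2, at 0.0118 to 0.0246 with a median of 0.529. Each of these 3 has an exon opposite another gene, and Dnah11 had 1325, 1278, 1428 and 1285 counts. With 4 libraries, these distances describe the libraries and carry no test.

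The wider replication machinery was described with 91 other genes in 10 lists. Of these, 87 had counts in every library and 41 passed the filter, of which edgeR's quasi-likelihood test and limma-voom each called 0 at an adjusted p of 0.05 and each had 1 at an unadjusted p under 0.05. In edgeR's fit it was Dnmt1, the maintenance DNA methyltransferase that binds PCNA. Dnmt1 had 138, 137, 151 and 278 counts in replicates 1 to 4, with replicate 4 highest. Its adjusted p in edgeR's quasi-likelihood fit was 0.659. The median level of the 91 genes was 3.22 TPM, below each of the 9 members.

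The initiation steps were covered by 3 lists. Among 9 origin licensing genes the median was 5.66 TPM, and the highest were Orc3, a subunit of the origin recognition complex, at 12.5 ± 3.00 TPM and Gmnn, the inhibitor of Cdt1, at 11.5 ± 2.38 TPM (SD, n = 4). Among 11 helicase activation genes the median was 2.08 TPM, with Donson, a factor in helicase assembly, at 306 ± 34.8 TPM and the helicase Recql4 at 6.21 ± 1.46 TPM. Donson has 103 bases opposite Son, and Recql4 has 422 opposite Mfsd3. Among 5 other MCM family genes, Mcm9 stood at 84.9 ± 6.70 TPM and Mcmdc2 at 26.1 ± 2.20 TPM, with 1748 bases opposite Asf1a and 127 opposite Snhg6. Mcm8, the partner of Mcm9 in a helicase for DNA repair, had 6, 2, 3 and 3 counts and no exon opposite, and was named after its values were seen.

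Genes of the synthesis steps followed the same layout. Among 12 DNA polymerase genes the median was 3.11 TPM, with Pole3 at 26.5 ± 6.09 TPM and Pole2 at 11.5 ± 2.29 TPM, both accessory subunits of polymerase epsilon. Among 4 replisome progression genes, Tipin reached 9.09 ± 3.91 TPM and its partner Timeless, with 111 bases opposite Gm26847, 3.62 ± 1.65 TPM. Among 9 clamp loader genes the median was 3.22 TPM, with Rfc5 at 69.7 ± 7.04 TPM and Rfc1 at 6.15 ± 2.12 TPM (SD, n = 4). Rfc5 has 499 bases opposite Wsb2.

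Strand maturation, clamp partners, nucleotide supply and E2F regulators completed the lists. Among 11 strand maturation genes, Rnaseh2c stood at 440 ± 19.5 TPM and Rnaseh2a at 278 ± 19.0 TPM, with 423 bases opposite Kat5 and 177 opposite Prdx2. Rnaseh2b, the remaining subunit of the same RNase, was at 2.02 ± 0.697 TPM with 66 bases opposite Dleu7, and was named after its values were seen. Among 7 PCNA partners, Chaf1a, a histone chaperone subunit with 620 bases opposite Ubxn6, was at 22.6 ± 8.05 TPM and Dnmt1 at 18.8 ± 7.14 TPM. Among 9 nucleotide supply genes, thymidine kinase Tk1 was at 38.6 ± 5.98 TPM, with 83 bases opposite Afmid. Among 14 E2F regulators, cyclin gene Ccne2 was at 103 ± 5.54 TPM with 609 bases opposite Ints8, and Rb1, the retinoblastoma gene, at 11.97 ± 1.24 TPM with 488 opposite Rcbtb2.

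Levels differed between genes with and without an opposite exon. The 32 genes with one had a median of 6.15 TPM, and the 59 with none had a median of 2.01 TPM and a highest value of 26.5 TPM, against medians of 3.16 and 0.839 TPM for all protein-coding genes of each class. Above 30 TPM, a bar chosen after the values were seen, were 7 genes, all with an opposite exon. The low values of replicate 3 were also unequal. Of the 59 genes with none, 42 were lowest in replicate 3, and the median ratio of replicate 3 to the mean of the others was 0.538, against 12 of 32 and 0.847 for those with one. Over all tested genes, 57.7% of those with none and 40.6% of those with one were lowest in replicate 3, so the classes differed in the same direction there.

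**Figure D4:**
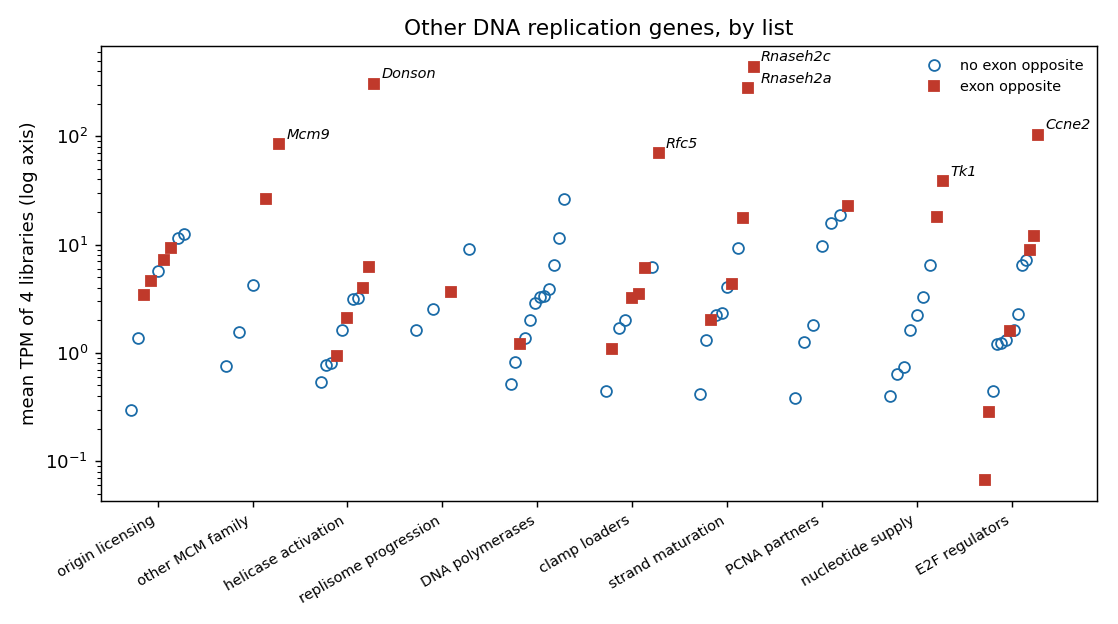
Each point is the mean TPM over 4 libraries (log axis) of 1 of 91 other replication genes, grouped by list; filled squares have an exon of another gene opposite and open circles have none. The 7 labelled genes lie above 30 TPM and all are squares, while the highest circle is Pole3 at 26.5 TPM.

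The members with no opposite exon also differ in how near a gene of the other strand lies. AV099323, an antisense entry, begins 43 bases from Pcna and had 0, 0, 2 and 1 counts, and Prkdc begins 466 bases from Mcm4 and had 9, 5, 4 and 7 counts. Gm36189, a processed pseudogene 297 bases beyond the 3′ end of Mcm2, had 59, 55, 54 and 65 counts. For Mcm5 and Mcm6 the nearest gene of the other strand was 64323 and 52212 bases away, and for Mcm3 it was 1019 bases away and had no counts.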

How the data were processed

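The authors deposited raw counts per gene for each of 4 libraries, made with featureCounts 1.4.6-p4 on mm10 with GENCODE release M13, read pairs counted with strand option 1 where both ends aligned, and exons summed per gene, per the file headers. The sources used here do not give the aligner. Members and gene lists were chosen with earlier results of these data known. Symbols came from GENCODE release M21 and matched 99.6% of genes. TPM was computed from counts and deposited lengths. Opposite exons (at least 1 base) were found with bedtools 2.31.1. Library totals of 1688658 to 2222583 counts limit precision, and intervals are exact Poisson at 95%. Variation between libraries was tested with edgeR 4.0.16 (R 4.3.3), intercept only, with TMM, filterByExpr and robust quasi-likelihood. The p is the upper-tail probability of a gene's quasi-dispersion relative to its trended prior, with 3 residual degrees of freedom, Benjamini-Hochberg adjusted over all genes tested. The test was checked on simulated data. Neighbouring levels were compared with exact sign-flip tests in scipy 1.17.1. Alternatives used DESeq2 1.42.0 size factors, limma 3.58.1, other filters, scales and lengths, and left out each replicate. Principal transcript lengths, and leaving out replicates for the ratio of highest to lowest library, were added after seeing the data.

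The text names the 9 members, every gene with an exon opposite theirs, the 2 genes of highest mean TPM in each replication list with any gene past the variation test, the 5 protein-coding genes nearest in pattern to the members with no opposite exon, and the 3 nearest to Gins2. Genes nearest by position, same-strand genes, copies of Pcna and entries that check the libraries were added after seeing the data. The values of 1 gene that this rule names are not reported here.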

Additional observations from a re-analysis of the deposited data

How the results depend on the processing

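No paired comparison between groups was possible because the libraries form 1 group, and pairs of genes were compared within libraries. No member was called by the variation test in the fit reported or in any of its 11 alternatives, where the smallest adjusted p of a member ran from 0.249 without replicate 2 to 0.968 without replicate 3. Over all genes the number called was 22, and it was 2 with library totals only, 56 without the count filter, 44 with a mean count of 10 or more, 9 without the robust prior, 7 with limma-voom and from 11 to 21 when leaving out a replicate. Members at an unadjusted p under 0.05 numbered 4, and 1 (Mcm4) with library size and TMM from genes with no opposite exon, and 0 to 4 when leaving out a replicate. The median ratio of highest to lowest library for the 6 members with no opposite exon was 2.80, and 1.95 as a share of counts in genes with no opposite exon. It ran from 1.26, without replicate 3, to 2.80 when leaving out a replicate, with 2.15 without replicate 4. The value under Gins2 stayed above that under Gse1 in every alternative, by 0.41 to 1.745. Mean TPM moved by more than the spread between replicates for 9 of 9 members on a protein-coding scale, for 6 of 6 on the scale of genes with no opposite exon, and for 5 of 9 with principal transcript lengths. Scales with fewer genes in the divisor raise every gene kept, so the moves on the protein-coding and no-opposite-exon scales are arithmetic. Counts of 24 to 162 per library for the members other than Gins2 and Gse1 limit what can be resolved at this depth. The causes of the other changes were not tested.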
